A study of Mus musculus and Homo sapiens with 20 samples.

Results

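Open chromatin was compared between hepatocytes deficient in vitamin B2 (riboflavin) and control hepatocytes, both given an adenovirus for the recombinase Cre. The comparison used the hepatocyte libraries titled B2_minus_Ad_Cre, 3 in number, against the 3 titled Cont_Ad_Cre, 6 of the 20 libraries of the series. They were chosen by title alone. All came from mouse hepatocytes labelled AhR_flox, carrying a floxed Ahr gene, with the label 4 weeks, and the protocol speaks of cultured cells. A second set of 6 hepatocyte libraries, 3 B2_minus_Ad_Cont and 3 Cont_Ad_Cont, had the adenovirus labelled Ad_Cont and is compared here only at the same regions. These 6 also entered the choice of tested regions and the estimate of spread, and with only the 6 Ad_Cre libraries in the fit the calls described below numbered 1254 in place of 1146. The floxed part of Ahr, the age and sex of the animals, and whether the label 4 weeks refers to animals or to treatment are not stated in the labels. Nor do the labels say that replicates were separate cultures or animals. The p-values thus cover the variation among these libraries alone, and that variation may be technical.

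Riboflavin is the precursor of the cofactors FMN and FAD, which flavoenzymes use for oxidation and reduction, many of them in mitochondrial fuel use. AhR is a ligand-activated transcription factor of the liver that pairs with ARNT and binds DNA containing GCGTG, best known for switching on detoxification genes. ATAC-seq marks open chromatin by the places where the transposase Tn5 can insert sequencing adapters.

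The promoters with the most direct bearing on these data are those in which a called region overlapped the bases just before a start site. Below are the 250 bases before the start site, from RefSeq on GRCm38.p6, read 5′ to 3′ on the strand of the gene. Gsta2, Ugt2b34 and Ybx3 are examples from 23 windows over a region that was higher in B2_minus libraries. Lrat, Plcd1 and Ctla2b are examples from 33 windows over a lower one. Their matches do not stand for the rest, and the shares over all such windows are given below. Capitals mark GCGTG (the AhR core), TGACNNNGC (the antioxidant element), TGANTCA (the AP-1 element) and CCAAT, on either strand, so that their reverse complements are marked too.
Gsta2, chr9:78347146-78347395, minus strand: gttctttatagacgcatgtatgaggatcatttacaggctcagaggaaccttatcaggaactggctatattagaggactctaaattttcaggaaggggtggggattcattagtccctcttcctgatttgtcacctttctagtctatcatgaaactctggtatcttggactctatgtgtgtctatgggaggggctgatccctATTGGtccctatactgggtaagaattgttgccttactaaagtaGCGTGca
Ugt2b34, chr5:86906938-86907187, minus strand: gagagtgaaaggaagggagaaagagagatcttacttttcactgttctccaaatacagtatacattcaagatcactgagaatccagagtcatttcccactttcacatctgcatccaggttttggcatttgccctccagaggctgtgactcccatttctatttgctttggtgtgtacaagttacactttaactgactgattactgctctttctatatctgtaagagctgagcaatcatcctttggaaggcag
Ybx3, chr6:131388451-131388700, minus strand: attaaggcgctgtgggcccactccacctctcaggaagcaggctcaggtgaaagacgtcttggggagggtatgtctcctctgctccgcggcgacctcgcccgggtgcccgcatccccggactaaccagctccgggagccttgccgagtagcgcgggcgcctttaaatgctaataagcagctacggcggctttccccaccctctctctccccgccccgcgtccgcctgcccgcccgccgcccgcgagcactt
Lrat, chr3:82903975-82904224, minus strand: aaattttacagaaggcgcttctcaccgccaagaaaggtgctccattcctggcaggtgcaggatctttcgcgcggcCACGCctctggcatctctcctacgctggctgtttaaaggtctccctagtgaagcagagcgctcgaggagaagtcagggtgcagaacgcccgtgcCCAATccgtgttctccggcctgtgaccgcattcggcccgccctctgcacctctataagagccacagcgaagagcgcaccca
Plcd1, chr9:119093503-119093752, minus strand: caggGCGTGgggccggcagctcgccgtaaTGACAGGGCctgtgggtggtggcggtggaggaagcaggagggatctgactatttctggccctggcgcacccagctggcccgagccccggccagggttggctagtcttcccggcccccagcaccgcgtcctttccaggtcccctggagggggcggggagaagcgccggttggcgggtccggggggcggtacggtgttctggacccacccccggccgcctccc
Ctla2b, chr13:60897448-60897697, minus strand: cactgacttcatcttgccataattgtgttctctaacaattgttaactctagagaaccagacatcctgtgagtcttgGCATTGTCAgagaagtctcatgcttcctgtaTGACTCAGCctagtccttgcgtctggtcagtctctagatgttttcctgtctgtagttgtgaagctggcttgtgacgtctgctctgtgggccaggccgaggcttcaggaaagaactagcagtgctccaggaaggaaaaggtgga
In Ctla2b one TGACNNNGC match and the TGANTCA match overlap in a single run. Ugt2b34 and Ybx3 had no match in this window.

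The 3 B2_minus lists held 207948 to 235220 peaks with 4304299 to 4926785 tags, and the 3 control lists 254160 to 281141 peaks with 4343680 to 5557678 tags. B2_minus lists had fewer peaks in 3 of 3 libraries, at a ratio of means of 0.833 (exact two-sided permutation p = 0.1, the smallest that 3 against 3 allows). With peaks of at least 20 tags the ratio was 1.01 (exact permutation p = 1). Listed tags differed less, at a ratio of 0.926 (exact permutation p = 0.5). The number of reads sequenced is not given in the sources used here, and no list goes below 6 to 8 tags, so weak sites are missing rather than 0. Values below are scaled tags, the tag count of the highest peak of a library in a region, adjusted to the size of the mean library. Called means an edgeR adjusted p under 0.05.

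The Ahr gene itself had accessible regions in all 6 libraries. Its body on mm10 chromosome 12 held 7 regions with a peak in all 12 hepatocyte libraries, and 0 of the 7 were called between the diets. Summed over these regions, B2_minus libraries had 180, 186 and 177 scaled tags, against 179, 166 and 162 in control libraries. The strongest region, over one end of the gene (chromosome 12, 35534948 to 35535212), had 69.9, 66.1 and 65.3 scaled tags in the B2_minus libraries, against 70.6, 75.6 and 66.6 in the control libraries, and the groups overlapped (log2 fold change -0.08, SE 0.09, edgeR adjusted p = 0.785). In the Ad_Cont libraries the 7 regions summed to 189, 196 and 196 in B2_minus and 181, 197 and 176 in control libraries. Of all 32 merged regions in the gene body, tested or not, 7 were listed in all 6 Ad_Cre libraries and 7 in all 6 Ad_Cont libraries, and these were the same 7. The labels do not name the part that Cre removes, and it may hold none of these regions, so the values are no check of the Cre label.

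**Figure D1:**
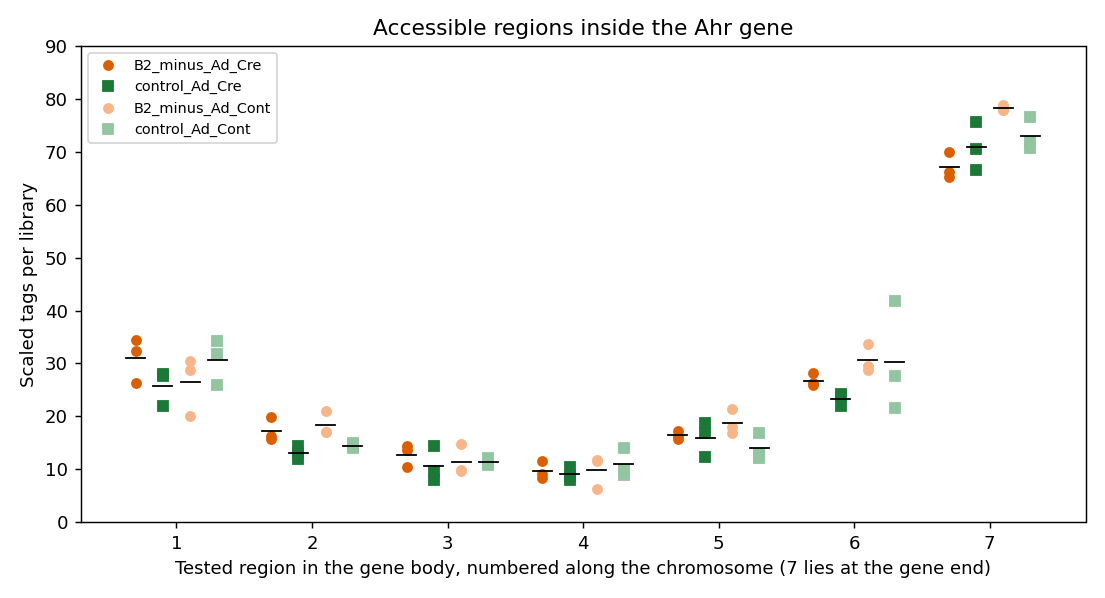
Scaled tags (vertical axis) in each library at the 7 tested regions of the Ahr gene body, numbered along the chromosome (horizontal axis). Points are libraries, 3 per group, and black bars are group means. At that end of the gene (region 7) the B2_minus Ad_Cre libraries had 65.3 to 69.9 scaled tags and the control Ad_Cre libraries 66.6 to 75.6.

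With Ad_Cre, 1146 of 101575 tested regions (1.13%) differed between the diets, 360 of them higher (0.354%) and 786 lower (0.774%) in B2_minus. The strongest of these by adjusted p included gains at Gsta2, Stab2 and Ldha and a fall beside Glrp1. Gains had a median of 46.0 scaled tags in B2_minus and 30.1 in control libraries and a median log2 fold change of 0.58. Falls had medians of 14.5 scaled tags in B2_minus and 27.2 in control libraries and a median log2 fold change of -0.86. The control medians of gains and falls were thus close, and regions not called had a control median of 23.3. Of the falls, 199 had a B2_minus mean under 10 scaled tags, close to the lowest listed counts, where a further loss could not be seen. The groups did not overlap at 17.5% of all tested regions, and at 1124 of the 1146. Among the 6 libraries the first principal component (30.1% of variance) set the 3 B2_minus libraries (34.8 to 48.7) apart from the 3 control libraries (-45.9 to -35.4). The number of calls depended on the test: edgeR bounded at Poisson variance called 18, limma 790 and DESeq2 0. With DESeq2, 2384 of 101575 regions had an unadjusted p under 0.05, below the share of 0.05 that comes with no difference. The direction depended on scaling, since with library size taken from listed tags all regions shifted up by a median of 0.14 on the log2 scale, and 4111 were higher and 485 lower. Directions below are therefore relative to the typical region.

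The largest gains among regions of at least 12 scaled tags in both groups had log2 fold changes from 0.91 to 1.08. Bbox1, which makes carnitine from its last precursor, rose at the end of the gene (chromosome 2, 110314724 to 110315039), with 40.7, 39.3 and 43.5 scaled tags in the B2_minus libraries, against 16.5, 19.9 and 26.3 in the control libraries (log2 fold change 0.95, SE 0.17, edgeR adjusted p = 0.000750). Crat, which moves acetyl groups between carnitine and coenzyme A, rose inside the gene with 29.2, 28.7 and 38.1 in B2_minus against 13.2, 19.9 and 17.5 in control (log2 fold change 0.91, SE 0.20, edgeR adjusted p = 0.00714). The groups did not overlap at either, which the rule for naming these regions required. Mical3 is a flavin-dependent monooxygenase of the MICAL family that acts on the actin cytoskeleton. A region over an end of its gene (chromosome 6, 121173585 to 121173889) had 44.9, 36.4 and 35.4 scaled tags in the B2_minus libraries, against 16.5, 17.9 and 20.2 in the control libraries (log2 fold change 1.07, SE 0.18, edgeR adjusted p = 0.000272). The lowest B2_minus library was thus above the highest control library, as the same rule required. Near Neto2, an auxiliary subunit of kainate receptors, the libraries had 32.3, 29.7 and 31.7 in B2_minus against 12.1, 18.9 and 13.1 in control (log2 fold change 1.08, SE 0.21, edgeR adjusted p = 0.00178). Stab2, a scavenger receptor for hyaluronan, held 40.7, 48.8 and 41.7 in B2_minus against 22.1, 20.9 and 21.9 in control, the control libraries lying close together. Trim17, a ubiquitin ligase, had 31.3, 39.3 and 48.1 in B2_minus against 16.5, 22.9 and 21.0 in control (log2 fold change 0.97, SE 0.18, edgeR adjusted p = 0.000943).

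The other 6 gains of this group lay in or near Myom1, a component of the muscle M band, Glt28d2, Ttc7b, a subunit of a phosphatidylinositol kinase complex, Foxn3, a forkhead repressor, Dipk2a and Ppp4r2, a subunit of protein phosphatase 4. Their log2 fold changes ran from 0.91 to 1.00. The Myom1 region had 26.1, 28.7 and 29.9 in B2_minus against 14.3, 10.9 and 16.6 in control, and the Foxn3 region 37.5, 30.6 and 29.0 in B2_minus against 21.0, 10.9 and 18.4 in control. At all 12 regions the 3 B2_minus libraries were above the 3 control libraries, as the rule for naming them required. Neto2, Mical3, Stab2, Trim17 and Bbox1 stayed called whichever of the 6 libraries was left out. Myom1 was lost without control replicate 2, Glt28d2 without control replicate 1, Crat without B2_minus replicate 3 or control replicate 1, and Foxn3 without B2_minus replicate 1 or control replicate 2. Dipk2a and Ttc7b were each lost without 1 B2_minus or 1 control library, and Ppp4r2 without any of 4 libraries.

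**Figure D2:**
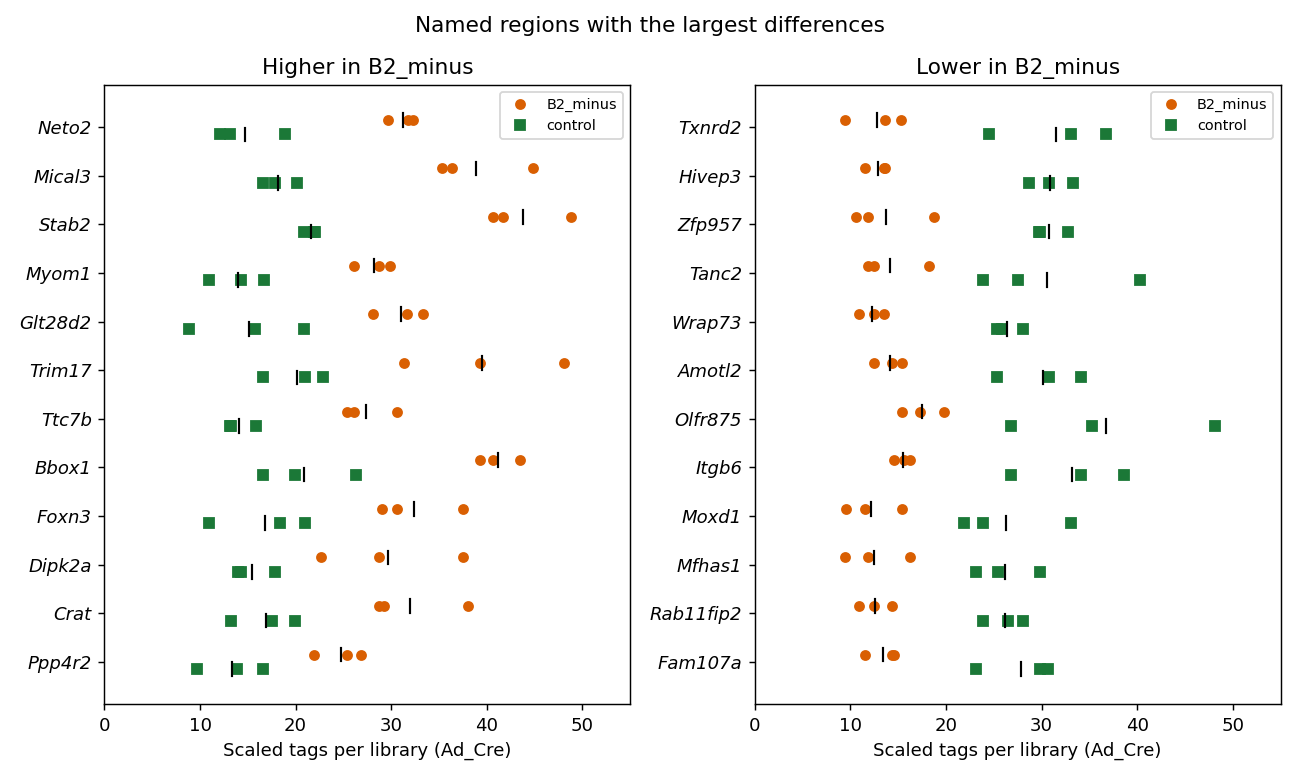
Scaled tags in each Ad_Cre library (horizontal axis) at the 12 largest gains (left) and the 12 largest falls (right), each row a region named by its nearest gene. Points are libraries, 3 per group, B2_minus above control in each row, and black bars are means. In every row the groups are separate, as the naming rule required, and the B2_minus values of the falls lie between 9.39 and 19.8 scaled tags.

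The 12 largest falls of the same kind had log2 fold changes from -1.26 to -1.05. Txnrd2, the mitochondrial thioredoxin reductase and itself a flavoenzyme, fell inside the gene (chromosome 16, 18471356 to 18471671), where the libraries had 9.39, 15.3 and 13.6 scaled tags in the B2_minus libraries, against 33.1, 36.8 and 24.5 in the control libraries (log2 fold change -1.26, SE 0.23, edgeR adjusted p = 0.000676). Hivep3, a zinc finger transcription factor, had within it 13.6, 11.5 and 13.6 in B2_minus against 28.7, 30.8 and 33.3 in control (log2 fold change -1.26, SE 0.21, edgeR adjusted p = 0.000258). Each group was tight there, and separate groups were required by the naming rule. Itgb6, the beta chain of an integrin that activates TGF-beta, fell inside the gene with 15.6, 16.3 and 14.5 in B2_minus against 38.6, 26.8 and 34.2 in control (log2 fold change -1.09, SE 0.20, edgeR adjusted p = 0.00120). Near Amotl2, an angiomotin that binds the growth regulator YAP, the values were 12.5, 14.4 and 15.4 in B2_minus against 25.4, 30.8 and 34.2 in control (log2 fold change -1.10, SE 0.21, edgeR adjusted p = 0.00217). The fall at Amotl2 lay 30084 bp from the gene, so the assignment is by distance only. Tanc2, a scaffold protein, fell by 1.13 on the log2 scale, Zfp957 by 1.18, Wrap73, a protein of the mitotic spindle poles, by 1.11 and Olfr875, an olfactory receptor gene, by 1.10. Moxd1, Mfhas1, Rab11fip2, an effector of recycling endosomes, and Fam107a fell by 1.05 to 1.07. Of the 12, Txnrd2, Hivep3, Zfp957, Wrap73, Amotl2, Itgb6 and Fam107a stayed called whichever library was left out. Tanc2 and Olfr875 were lost without control replicate 3, Mfhas1 without B2_minus replicate 1, Rab11fip2 without B2_minus replicate 3, and Moxd1 without B2_minus replicate 2 or control replicate 1.

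Gene ends here means no more than 1 kb from where a gene begins or ends. Besides the Mical3 region given above, the 43 gains there included those at Gsta2, Gpt, Zfhx4 and 1600014C23Rik. Gsta2, a glutathione transferase, rose over the promoter printed above (chromosome 9, 78347083 to 78347345), with 52.2, 46.9 and 49.0 scaled tags in the B2_minus libraries, against 25.4, 28.8 and 25.4 in the control libraries (log2 fold change 0.89, SE 0.15, edgeR adjusted p = 0.000224). Its near-identical relatives could share reads, and the authors' handling of such reads is not stated in the labels. Gpt, which makes alanine aminotransferase, had 69.9, 62.3 and 57.1 in B2_minus against 40.8, 36.8 and 48.2 in control (log2 fold change 0.57, SE 0.12, edgeR adjusted p = 0.00441). Zfhx4, a homeodomain transcription factor, had 60.5, 50.8 and 49.0 in B2_minus against 35.3, 30.8 and 35.0 in control (log2 fold change 0.65, SE 0.13, edgeR adjusted p = 0.00378), and 1600014C23Rik 69.9, 50.8 and 60.8 in B2_minus against 27.6, 34.8 and 41.2 in control (log2 fold change 0.78, SE 0.13, edgeR adjusted p = 0.000224). All 4 had separate groups, but Gpt was lost without B2_minus replicate 1 or control replicate 2, and Zfhx4 without B2_minus replicate 1.

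Falls at gene ends lay at Gja5, Cit, Osr2, Ctla2b and Plcd1, besides Tanc2. Gja5, the arterial connexin, had 9.39, 13.4 and 9.97 scaled tags in the B2_minus libraries, against 27.6, 29.8 and 25.4 in the control libraries (log2 fold change -1.32, SE 0.23, edgeR adjusted p = 0.000584). Cit, a kinase of cytokinesis, had 15.6, 18.2 and 15.4 in B2_minus against 27.6, 35.8 and 37.7 in control (log2 fold change -1.05, SE 0.20, edgeR adjusted p = 0.00136), and Plcd1, a phosphoinositide phospholipase, 7.30, 7.66 and 9.97 in B2_minus against 18.7, 20.9 and 20.2 in control (log2 fold change -1.24, SE 0.26, edgeR adjusted p = 0.00404). The Plcd1 values in B2_minus lie at the lowest listed counts, so their spread may be understated. Ctla2b, an inhibitor of cathepsin-like proteases, was the strongest of these sites, with 27.1, 29.7 and 36.3 in B2_minus against 56.2, 43.7 and 50.8 in control (log2 fold change -0.68, SE 0.14, edgeR adjusted p = 0.00404), and its relative Ctla2a is similar in sequence. Osr2, a zinc finger factor of development, had 11.5, 11.5 and 6.35 in B2_minus against 23.2, 19.9 and 24.5 in control and was lost without B2_minus replicate 3.

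Called regions were less frequent at gene ends than elsewhere. Of 21684 tested regions at gene ends, 43 were higher and 70 lower (0.521%), against 187 and 352 of 46757 inside genes (1.15%), 83 and 214 of 23028 within 50 kb (1.29%) and 47 and 150 of 10106 further away (1.95%). Gene ends were also stronger sites, with a median of 39.9 scaled tags, against 20.7 to 22.2 in the other places. On chromosome X, 1 region was higher and 2 lower of 1619 tested (0.185%), while the other chromosomes had 0.933% to 1.37% called. The median level on X was 21.3 scaled tags, against 22.4 to 24.8 elsewhere. No test was made of these shares.

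Promoter sequence was described for 250-base windows that overlapped a tested region. GCGTG stood in 12 of the 23 windows over a higher region (52.2%), in 15 of the 33 over a lower one (45.5%) and in 47.8% of 11705 windows over a region not called, against 34.1% of all 21020 windows. TGACNNNGC stood in 26.1%, 12.1% and 12.2% of the same 3 classes, against 10.5% of all windows, and TGANTCA in 0%, 12.1% and 4.50%, against 6.18%. CCAAT had shares of 21.7%, 27.3% and 36.9% (35.6% of all), and TGACCT, a nuclear receptor motif searched in the same way, 8.70%, 9.09% and 10.4% (12.8% of all). These are matches of letters, and with 23 and 33 windows a single promoter moves a share by several percentage points.

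AhR and its target genes had few calls. Near 18 of them 161 regions were tested, with 1 higher, at Gsta2, and 1 lower, at Lrat, the enzyme that stores retinol as esters (1.24% called, against 1.13% of all regions). The list's median log2 fold change was 0.02, against 0.00 over all regions. Lrat, whose promoter is printed above, had 10.4, 17.2 and 17.2 scaled tags in the B2_minus libraries, against 21.0, 33.8 and 25.4 in the control libraries (log2 fold change -0.82, SE 0.22, edgeR adjusted p = 0.0311), and was lost without any of 5 libraries. The Lrat region lies in the list of stellate cell markers too. Cyp1a1, Cyp1a2, Tiparp and Ahrr, the best known targets, had no called region.

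Riboflavin transport and flavin cofactor synthesis had 0 called regions of 26. Mitochondrial flavoenzymes had 1 higher and 0 lower of 123, the gain lying inside Sardh, which oxidizes sarcosine with a flavin, at 24.0, 26.8 and 25.4 in B2_minus against 16.5, 10.9 and 16.6 in control (log2 fold change 0.78, SE 0.22, edgeR adjusted p = 0.0445). The other flavoenzymes had 2 higher and 3 lower of 310, a share of 1.61%. Both gains lay in Mical3, which also had a region that fell, by 0.81 on the log2 scale. Besides Txnrd2, Por, which passes electrons to cytochrome P450 enzymes through its flavins, fell inside the gene with 18.8, 22.0 and 24.5 in B2_minus against 34.2, 31.8 and 39.4 in control (log2 fold change -0.69, SE 0.18, edgeR adjusted p = 0.0290). When libraries were left out 1 at a time, Sardh and the Mical3 fall were lost in all 6 cases, Por in 5 and the weaker Mical3 gain in 4. Scaled by listed tags, the AhR list had 6 higher and 1 lower, riboflavin transport and cofactor synthesis 2 and 0, mitochondrial flavoenzymes 9 higher and 0 lower, and the other flavoenzymes 19 and 1.

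The lists of fuel use had few calls, near or below the 1.13% of all regions. Glycolysis and gluconeogenesis had 2 higher and 0 lower of 244 (0.820%), at Ldha and Pfkp. Ldha makes lactate dehydrogenase A, and its region (chromosome 7, 46838968 to 46839310) had 62.6, 71.8 and 66.2 scaled tags in the B2_minus libraries, against 34.2, 44.7 and 44.7 in the control libraries (log2 fold change 0.69, SE 0.11, edgeR adjusted p = 0.000224). Pfkp, a phosphofructokinase, had 50.1, 59.4 and 55.3 in B2_minus against 44.1, 38.8 and 38.6 in control (log2 fold change 0.45, SE 0.12, edgeR adjusted p = 0.0423). Fatty acid oxidation and ketogenesis had 2 higher and 1 lower of 231 (1.30%). Fabp1, the liver fatty acid carrier, rose 3428 bp from the gene with 48.0, 43.1 and 49.9 in B2_minus against 19.8, 31.8 and 33.3 in control (log2 fold change 0.70, SE 0.15, edgeR adjusted p = 0.00573). Near Acot12, an acetyl-CoA hydrolase, the values were 26.1, 31.6 and 30.8 in B2_minus against 29.8, 9.94 and 9.64 in control (log2 fold change 0.91, SE 0.23, edgeR adjusted p = 0.0231). Here control replicate 1 lay among the B2_minus libraries while the other two control libraries were far lower, so the groups overlapped. Plin2, a lipid droplet coat protein, fell by 0.77. Fatty acid and triglyceride synthesis had 1 gain of 288 (0.347%), 8512 bp from Scd1, the stearoyl-CoA desaturase, with 79.3, 74.7 and 63.5 in B2_minus against 51.8, 50.7 and 52.6 in control (log2 fold change 0.48, SE 0.10, edgeR adjusted p = 0.00655). Ldha stayed called whichever library was left out, Fabp1 was lost without control replicate 1, Scd1 without B2_minus replicate 1, Acot12 without any of 4 libraries, Plin2 without any of 5 and Pfkp without any of the 6. Cholesterol synthesis and uptake had 0 called of 162. Scaled by listed tags, glycolysis had 12 higher regions, fatty acid oxidation 11, fatty acid synthesis 16 and cholesterol synthesis 11, with 0 lower in each.

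Other hepatocyte functions had 1 or 2 calls per list, and all but detoxification had a share below the 1.13% of all regions. Phase I and II detoxification had 2 higher and 0 lower of 122 (1.64%), with the highest median of the pathway lists at 0.13. Those were Gstm3, another glutathione transferase, with 42.8, 35.4 and 47.2 in B2_minus against 29.8, 22.9 and 28.0 in control, and Ugt2b34, a glucuronosyltransferase, over the promoter printed above with 78.2, 71.8 and 62.6 in B2_minus against 51.8, 56.7 and 50.8 in control (log2 fold change 0.41, SE 0.10, edgeR adjusted p = 0.0253). Both belong to families of similar genes, and each was lost without any of 4 libraries. Bile acid handling had 1 of 151, inside the importer Slco1b2 (0.49 on the log2 scale), hepatocyte identity factors 1 of 329, near Hnf4a (0.65), and plasma proteins 1 of 260, near Trf, transferrin (0.46). Insulin and FoxO signalling had 1 higher, inside Igf1 (0.65), and 1 lower, inside the phosphatase gene Ptpn1 (-0.76), of 308. NRF2 and antioxidant targets had 1 of 180, beside Keap1, the inhibitor of NRF2, with 76.1, 69.0 and 80.7 in B2_minus against 55.1, 53.7 and 65.7 in control (log2 fold change 0.36, SE 0.10, edgeR adjusted p = 0.0391). Scaled by listed tags, detoxification had 17 higher regions, insulin and FoxO signalling 15, identity factors 13, plasma proteins 9, NRF2 targets 7 and bile acid handling 5, with 0 lower in each. When libraries were left out, Slco1b2, Trf, Igf1 and Ptpn1 were lost without any of the 6 libraries, Hnf4a without any of 5 and Keap1 without any of 4.

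Genes of the Hippo-YAP pathway had mostly falls, with 1 higher and 6 lower of 253 (2.37% lower, against 0.774% of all regions), but 5 and 4 when scaled by listed tags. The 6 falls were a pair near Amotl2 and 1 each at Axl, a receptor kinase (-0.62), Nuak2, a kinase (-0.41), Tead1, the DNA-binding partner of YAP (-0.78), and Fgf1, a growth factor (-1.01). Tead1 held 16.7, 20.1 and 16.3 in B2_minus against 35.3, 26.8 and 29.8 in control (log2 fold change -0.78, SE 0.20, edgeR adjusted p = 0.0267). Fgf1 also had the gain, with 30.2, 37.4 and 46.2 in B2_minus against 17.6, 27.8 and 28.0 in control, so its regions moved both ways. The list's median was -0.03, and within 10 kb of the genes the list had 1 higher and 4 lower of 213 regions. When libraries were left out 1 at a time, the nearer Amotl2 region stayed called, while Axl was lost in all 6 cases, the Fgf1 gain in 5, and Tead1, Nuak2, the Fgf1 fall and the other Amotl2 region in 4 each.

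The actin and MRTF-SRF list had 7 higher and 3 lower of 516 (1.36% higher, against 0.354% of all regions), but 23 and 3 when scaled by listed tags, where all regions had 4111 and 485. Gains lay near Actb, cytoplasmic actin, with 68.8, 63.2 and 56.2 in B2_minus against 45.2, 40.8 and 40.3 in control (log2 fold change 0.57, SE 0.12, edgeR adjusted p = 0.00359), and inside Mrtfa, an actin-sensing coactivator of SRF, with 86.6, 76.6 and 78.9 in B2_minus against 58.4, 56.7 and 57.0 in control (log2 fold change 0.49, SE 0.10, edgeR adjusted p = 0.00219). Further gains lay 49879 bp from Mrtfb, 43904 bp from Pdlim5 and inside Myo1e, Actn1 and Palld. At Myo1e the control libraries had 9.92, 7.95 and 7.01 scaled tags, close to the lowest listed counts. Within 10 kb of the genes the list had 5 higher and 2 lower of 465 regions. Falls lay at Actn1, an actin crosslinker (-1.29), Palld, a stress fibre protein (-0.95), and Pdlim5 (-0.68), so 3 of these genes had regions that moved both ways. Near Actn1 the fallen region had 9.39, 8.62 and 15.4 in B2_minus against 28.7, 22.9 and 31.5 in control and the risen one 46.9, 44.1 and 47.2 in B2_minus against 28.7, 31.8 and 35.9 in control. TGF-beta signalling and matrix had 0 higher and 3 lower of 352 (0.852% lower, near the 0.774% of all regions), but 12 and 2 when scaled by listed tags. Among them were Itgav, the integrin partner of Itgb6, with 15.6, 16.3 and 15.4 in B2_minus against 34.2, 21.9 and 32.4 in control (log2 fold change -0.90, SE 0.21, edgeR adjusted p = 0.0101), and Lama5, a laminin chain (-0.68). Actb, Mrtfa and the falls at Actn1 and Palld stayed called whichever library was left out. The gains at Actn1 and Palld were lost in all 6 such cases, Lama5 and Mrtfb in 5, and Itgav, Myo1e and both Pdlim5 regions in 3.

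Inflammatory signalling had 0 higher and 1 lower of 248 (0.403% called, against 1.13% of all regions), and 8 and 1 when scaled by listed tags. The fall was near Irf1, a transcription factor of interferon responses. This region, 14618 bp from the gene, had 10.4, 9.58 and 9.97 scaled tags in the B2_minus libraries, against 24.3, 19.9 and 21.9 in the control libraries (log2 fold change -1.13, SE 0.24, edgeR adjusted p = 0.00619). The B2_minus values lie close to the lowest listed counts, so their spread may be understated. The call stayed without any 1 library. One-carbon metabolism had 2 falls of 156 (1.28% called), both inside Mthfd1l, a mitochondrial folate enzyme (-0.57 and -0.54). Scaled by listed tags, it had 9 higher and 0 lower. Each Mthfd1l call was lost without any of 5 libraries. The cell cycle list had 1 fall of 147 (0.680% called), near Ccnd2, cyclin D2 (-0.97), lost without any of 4 libraries. Interferon genes (115 regions), immediate early genes (246), the integrated stress response (99) and the circadian clock (247) had 0 called. Scaled by listed tags these 4 had 3, 6, 2 and 5 higher in that order, with 0 lower in each.

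**Figure D3:**
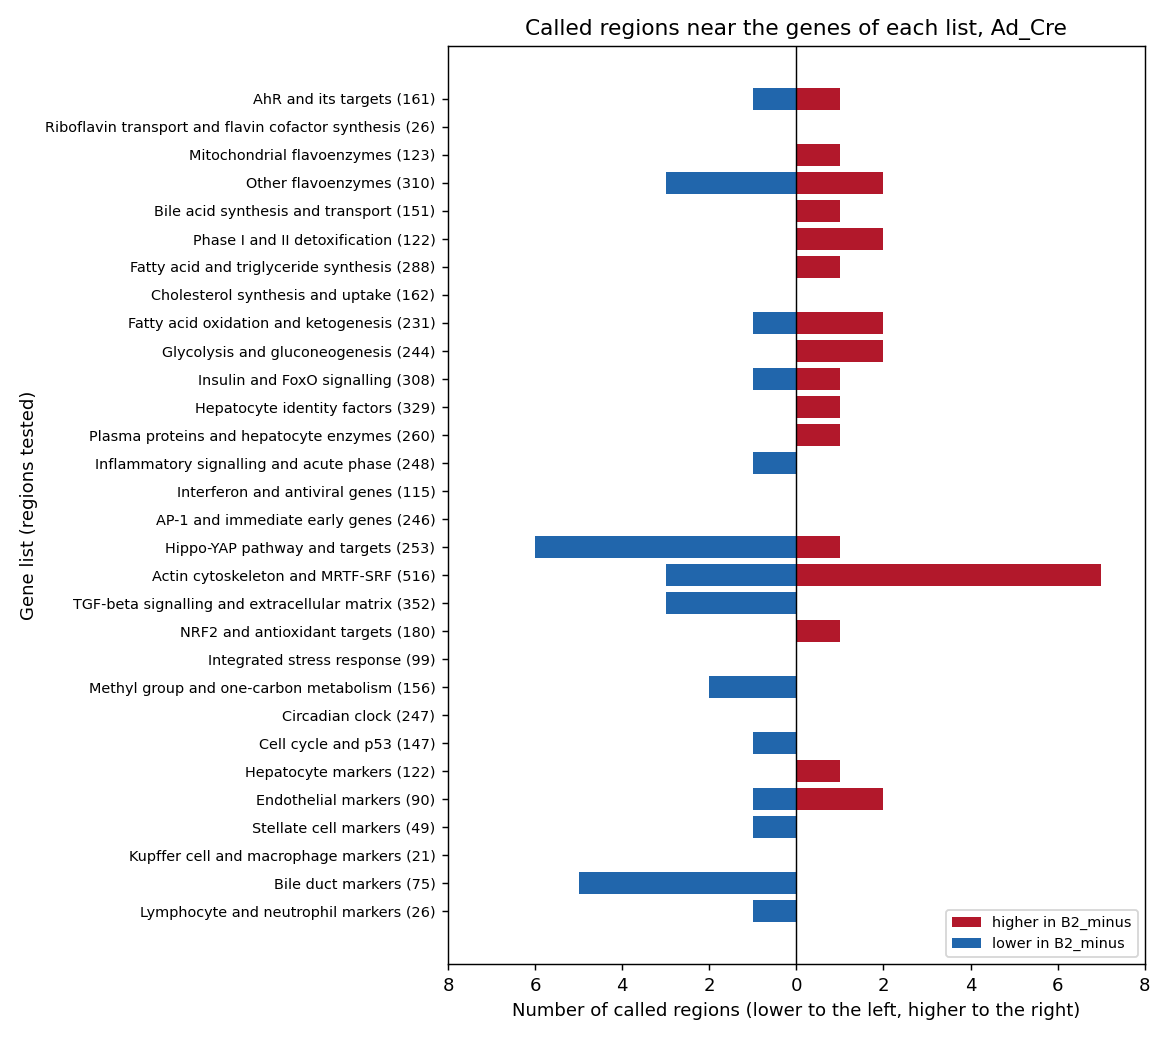
Number of called regions near the genes of each list, lower in B2_minus to the left and higher to the right of the zero line, with the number of tested regions in brackets. The actin list had the most gains, 7, and the Hippo-YAP list the most falls, 6.

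Some markers of other liver cells had called regions too. Bile duct markers had 0 higher and 5 lower of 75 regions (6.67% lower, against 0.774% of all regions), and 1 and 4 when scaled by listed tags. The falls lay near Spp1, Krt7, Krt19 and Sox4. The pair near Sox4 lay side by side on chromosome 13 (28916911 to 28917894 and 28917910 to 28918216), so these calls are not independent. All bile duct marker regions summed to 2041 to 2142 scaled tags in B2_minus and 2222 to 2307 in control libraries. Spp1 had 7.30, 6.70 and 6.35 in B2_minus against 12.1, 13.9 and 19.3 in control and Krt19 6.26, 7.66 and 7.25 in B2_minus against 11.0, 16.9 and 12.3 in control, at the lowest listed counts in B2_minus, and Sox4 13.6, 13.4 and 13.6 in B2_minus against 24.3, 32.8 and 23.7 in control (log2 fold change -0.98, SE 0.22, edgeR adjusted p = 0.00863). Of the 5 calls, those at Krt7 and Krt19 were each lost without any of 5 libraries, the other Sox4 region without any of 4, Spp1 without any of 3, and the Sox4 region just given without control replicate 2. Within 10 kb of the genes there were 2 falls of 49 regions. Stellate markers had 1 fall of 49 (2.04%), at Lrat, and summed to 1187 to 1299 in B2_minus and 1329 to 1394 in control libraries. The bile duct and stellate sums were lower in all 3 B2_minus libraries. Most of the lists had separate sums, so this does not set these markers apart. Sums were lower in B2_minus for inflammatory signalling too (8044 to 8130 against 8309 to 8320). They were higher for detoxification (3631 to 3762 against 3339 to 3441) and for AhR and its targets (4419 to 4608 against 4374 to 4396), among others. Scaled by listed tags, the median log2 fold change was 0.0361 for bile duct and 0.0408 for stellate markers, against 0.137 over all regions. The part of these markers in the falls of the Hippo-YAP and matrix lists was not tested. In bulk samples fewer cells of a type and less open chromatin per cell cannot be told apart.

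Endothelial markers had 2 gains, both inside Stab2, and 1 fall, at Gja5, of 90 (3.33% called, against 1.13% of all regions). The Stab2 regions lay side by side on chromosome 10 (86872164 to 86872567 and 86872614 to 86873016), so their calls are not independent. Endothelial marker regions summed to 2199 to 2308 in B2_minus and 2206 to 2231 in control libraries, which overlap. Hepatocyte markers had 1 gain of 122 (0.820% called), near Hnf4a, and summed to 3415 to 3458 in B2_minus and 3166 to 3301 in control libraries. All 10 hepatocyte marker genes had at least 1 region listed in all 12 libraries, as had all 14 endothelial, all 14 stellate and all 10 bile duct marker genes. Scaled by listed tags, endothelial markers had 8 higher and 1 lower and hepatocyte markers 8 and 0. Kupffer and macrophage markers had 0 called of 21, with 7 of 14 genes lacking a tested region, Clec4f, Timd4 and Vsig4 among them. Lymphocyte and neutrophil markers had 1 fall of 26 (3.85% called), near Cd180. There the libraries had 9.39, 11.5 and 27.2 in B2_minus against 33.1, 30.8 and 30.7 in control, and B2_minus replicate 3 was close to the control libraries. That call was lost without B2_minus replicate 1 or replicate 2.

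Some genes had several called regions. Sfi1, a centrosome protein gene, had 11 falls among 38 regions tested, all between 3184583 and 3200052 on chromosome 11, with log2 fold changes from -0.59 to -0.36. The largest of them had 35.5, 36.4 and 40.8 in B2_minus against 61.8, 57.7 and 51.7 in control. The regions lie side by side in 1 stretch, and the handling of reads that match several places is not stated in the labels, so they are not independent. Leaving out the Sfi1 regions left 775 lower. Near Glrp1, a glutamine-repeat protein gene, 3 of 14 regions fell, the strongest with 32.3, 35.4 and 32.6 scaled tags in the B2_minus libraries, against 48.5, 66.6 and 57.8 in the control libraries (log2 fold change -0.79, SE 0.13, edgeR adjusted p = 0.000224). Htra1, a secreted protease, had 3 falls of 7, Jdp2, a repressor of AP-1, 3 of 9, and Lif, a cytokine, 3 of 21. When libraries were left out 1 at a time, 2 of the Glrp1 and 2 of the Sfi1 regions stayed called in all 6 cases. The other Glrp1 region was lost in all 6, the Htra1 and Lif regions in 4 to 6, the Jdp2 and Ank3 regions in 2 to 4 and the other Sfi1 regions in 1 to 6. The Jdp2 region over its start had 32.3, 40.2 and 41.7 in B2_minus against 52.9, 49.7 and 60.5 in control (log2 fold change -0.51, SE 0.13, edgeR adjusted p = 0.0188). Within Ank3, ankyrin G, 2 regions fell and 1 rose of 37, the gain having 38.6, 25.9 and 30.8 in B2_minus against 17.6, 17.9 and 14.9 in control. These 6 genes were named first by count and then by alphabet, and others had 3 called regions as well.

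The same regions were then read in the Ad_Cont libraries, which share no library with the Ad_Cre comparison. Of the 360 gains, 328 had the same sign with Ad_Cont (91.1%, against 61.9% of the regions not called) and 46 were also called there, where 1058 regions were called in all (1.04%), 430 higher (0.423%) and 628 lower (0.618%). Of the 786 falls, 743 had the same sign (94.5%) and 152 were called. The median log2 fold changes were 0.58 with Ad_Cre and 0.27 with Ad_Cont for the gains, and -0.86 and -0.47 for the falls. Because the regions were chosen for their size with Ad_Cre, smaller values with Ad_Cont come with the choice. Tested directly, 0 regions differed in diet effect between Ad_Cre and Ad_Cont by edgeR (5221 at an unadjusted p under 0.05), and 0 by limma (5133) or bounded edgeR (1421). A share of 0.05 of tested regions passes that unadjusted limit with no difference at all, and these counts are near or below it.

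**Figure D4:**
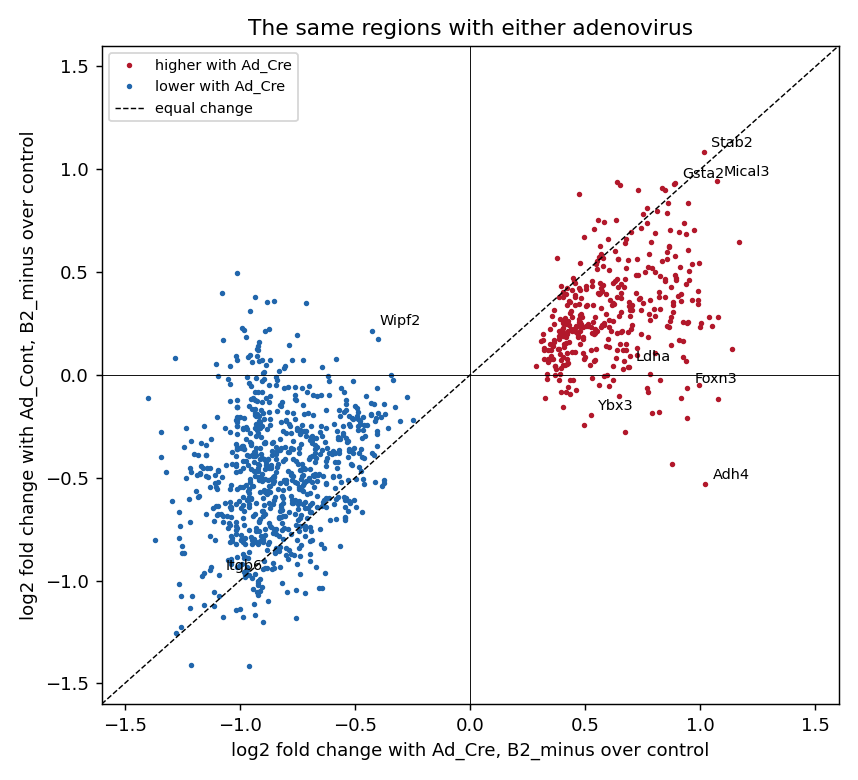
Log2 fold change of B2_minus over control with Ad_Cre (horizontal axis) against the same with Ad_Cont (vertical axis) for the 1146 called regions. The dashed line marks equal change, and the sign was the same for 328 of 360 gains and 743 of 786 falls.

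Stab2, Gsta2 and Mical3 were alike with both adenoviruses. Their log2 fold changes were 1.01, 0.89 and 1.07 with Ad_Cre and 1.08, 0.93 and 0.94 with Ad_Cont. Itgb6 was similar on the side of the falls, at -1.09 and -0.97. The lowest unadjusted p-values for a difference between the adenoviruses lay at Ybx3, Mnt, Adh4, Ergic1, Ldha and Wipf2, none of which passed adjustment. Over the promoter of Ybx3, a cold shock domain protein, the libraries had 63.6, 71.8 and 57.1 in B2_minus against 46.3, 47.7 and 40.3 in control with Ad_Cre, and with Ad_Cont 48.4, 66.1 and 61.0 scaled tags in B2_minus and 66.3, 69.7 and 62.6 in control (edgeR interaction adjusted p = 0.578). The control Ad_Cre libraries were the low ones there. Ldha had 62.6, 71.8 and 66.2 in B2_minus against 34.2, 44.7 and 44.7 in control with Ad_Cre, and with Ad_Cont 58.2, 60.8 and 51.5 scaled tags in B2_minus and 55.3, 58.7 and 51.8 in control (edgeR interaction adjusted p = 0.644). Mnt, a partner of MAX, had a log2 fold change of -0.40 with Ad_Cre and 0.17 with Ad_Cont. Adh4, an alcohol dehydrogenase, had 1.02 with Ad_Cre and -0.53 with Ad_Cont, and Wipf2, an actin regulator, -0.42 with Ad_Cre and 0.21 with Ad_Cont. Of these 6, only the Wipf2 region had overlapping groups with Ad_Cre. At Ergic1 the highest B2_minus Ad_Cre library had 7.66 scaled tags and the lowest control Ad_Cre library 7.72, so that the groups were barely apart and the B2_minus values lay at the lowest listed counts.

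Sites listed in all libraries of one diet and in none of the other were counted apart. There were 1429 in all B2_minus and no control library, and 3018 in all control and no B2_minus library. A peak of the other diet lay within 500 bp of 920 of the B2_minus sites and 1547 of the control sites, and of 100% of the 100 strongest B2_minus sites and 94% of the 100 strongest control sites. The remaining 509 B2_minus sites were weak, with a median of 7.70 scaled tags and none above 15.1. The remaining 1471 control sites had a median of 8.47 and none above 18.1. Among the strongest of these were a site inside Rdx, which makes the membrane linker radixin, with 15, 15 and 12 tags in B2_minus, and one near Csf2, a myeloid growth factor, with 15, 18 and 19 tags in control libraries. Both sites were listed in all 6 Ad_Cont libraries. Of the whole sets, 45 B2_minus sites and 76 control sites had the same all-or-none pattern with Ad_Cont. A site absent from a list can hold tags below its lowest listed count.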

How the data were processed

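Each deposited file lists the peaks of 1 ATAC-seq library, and the authors' value per peak is a whole-number count of tags. The files have no header, and whole numbers with differing totals were read as unscaled counts. The submitters' processing notes name Bowtie2, HOMER and mm10, without roles or settings, so read shifting and duplicate handling are unstated. Replicates varied less than Poisson counting, so high counts may be compressed and replicates too alike to be separate libraries could not be told from others.

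Peaks of the 12 hepatocyte libraries overlapping by at least 1 bp were merged into 642948 regions. The highest peak count per library was kept, and 101575 regions with a peak in all 12 were tested with edgeR 4.0.16 in R 4.3.3 (TMM, quasi-likelihood without the Poisson bound, 4 groups, Benjamini-Hochberg). An earlier look at these data chose that unbounded form after its results were seen. In simulated Poisson counts for the B2_minus against control comparison with Ad_Cre, 54.5% of 200 regions with a log2 change of 1, up or down, were recovered. The simulation had Poisson spread and no lowest listed count, unlike the real lists, so this share need not hold for them. Regions were assigned to the nearest protein-coding gene within 50 kb on GRCm38.p6, and exons were not annotated.

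Named regions were the 12 largest gains and falls with at least 12 scaled tags in both group means and separate groups, up to 4 per gene list, 6 gains and 6 falls by adjusted p at gene ends, genes with most calls, the Ahr gene body and the 6 lowest interaction p-values. Further called regions of the lists are named to complete their counts and were chosen after their values were seen. Members and lists were chosen with earlier results of these data known. Limma 3.58.1 used log2(scaled tags + 1), and DESeq2 1.42.0 its own size factors.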

Additional observations from a re-analysis of the deposited data

How the results depend on the processing

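The 1146 regions called (360 higher, 786 lower) became 18 (6 and 12) with the spread bounded at Poisson, 4596 (4111 and 485) with library size from listed tags, 32 (18 and 14) when 3 listed libraries sufficed, 25 (8 and 17) with sums of peaks and 0 (0 and 0) with DESeq2. Of the 32 and the 25, 5 and 10 were among the 1146. Gains were 31.4% of calls and 89.4% with library size from listed tags. Leaving out 1 library gave 350 to 582 calls, 114 to 154 higher and 236 to 431 lower. Counting only regions with at least 12 scaled tags in each group, a choice made after seeing the data, gave 327 higher and 482 lower. The Ad_Cont count of 1058 became 17 with the bounded spread. RLE size factors (1158), loess (884), only the 6 Ad_Cre libraries (1254), their 6 lists (1360), a mean of at least 20 tags (835) and limma (790) kept the count within 1.5 times. With the replicate block 1173 were called, 1135 of them among the 1146. Same-numbered libraries did not pair by the correlation of their deviations (0.0123, 0.00294 and 0.00986), though each number's own pair had the highest value. No called named region changed sign. Of the Ahr regions not called, that at 35530380 had -0.069 to 0.205 with 1 library left out, below 0 without B2_minus replicate 2 (-0.069) or control replicate 2 (-0.015). That at 35532160 had -0.114 to 0.184, below 0 without control replicate 3, and that at 35534948 turned to 0.056 with library size from listed tags and 0.021 when 3 listed libraries sufficed. The cause of these differences was not tested. Depth is unknown, and falls at weak sites are limited by the lowest listed count.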
